A study of Mus musculus with 10 samples.

Results

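DNA replication and S phase genes were followed as 1 module in mouse embryonic stem cells (ESCs) in which the cohesin-releasing factor Wapal (gene symbol Wapl) or the cohesin ring subunit Smc3 had been depleted. The module was a list of 46 genes drawn up by function, namely the factors that license replication origins, fire them, copy the DNA and supply its nucleotides, together with the regulators of entry into S phase. 45 of the 46 had a probe set assigned to that gene alone, out of 18193 such genes on the array, and Chaf1a did not. Each gene was represented by its probe set with the highest mean log2 intensity over the 10 arrays.

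The cells were CJ9 ESCs, a line derived from 129svj mice. All groups received a lentivirus for 48 h with 10 mcg/mL polybrene, then medium with LIF and 4 mcg/mL puromycin, and were cultured for 48 h after infection. The control group carried the Empty Vector, 2 groups carried Wapal shRNA1 or Wapal shRNA2, and 2 carried Smc3 shRNA1 or Smc3 shRNA2, which makes 5 groups of 2 arrays. Every group was thus 1 infected ESC line at a single early time, with shRNAs that lower a transcript without removing it. The study's methods call the 2 arrays of a group biological replicates, without saying how they were separated. RNA of the whole culture was measured on Affymetrix arrays, on which fewer cells in S phase and less RNA per cell cannot be told apart.

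Replication starts in G1, when the origin recognition complex (Orc) with Cdc6 and Cdt1 loads the Mcm2-7 helicase onto DNA, a step called licensing. At the G1 to S transition cyclin E and its kinase, with Cdc45, the GINS complex and Mcm10, convert the loaded helicase into moving forks. DNA polymerase alpha with primase starts each strand, polymerases epsilon and delta extend the leading and lagging strands on the Pcna clamp, and ribonucleotide reductase makes the deoxynucleotides. E2F factors are known to transcribe much of this set. ESCs spend a large share of their cycle in S phase and have a short G1, and cohesin, which the replication fork makes cohesive, holds sister chromatids together from S phase until mitosis.

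The targeted transcripts followed the labels. Wapl read 2500 and 2648 on the 2 control arrays, 928.7 and 1005 under the first Wapal shRNA, and 235.4 and 217 under the second. Smc3 read 1536 and 1555 on the Empty Vector arrays and 175.8 to 222.8 on the 4 Smc3 shRNA arrays. All 12 ESC markers examined had a mean log2 intensity of 6 or more, the level taken here as clearly above the dim probe sets, against 2 of 11 fibroblast, 4 of 8 trophectoderm and 1 of 8 primitive endoderm markers. The averaged ESC markers read 12.52 to 12.6 on the log2 scale on the Empty Vector arrays. They read 12.48 to 12.5 with Wapal shRNA1, 12.62 to 12.64 with Wapal shRNA2, 12.51 with Smc3 shRNA1 and 12.36 to 12.39 with Smc3 shRNA2. The averaged trophectoderm markers were lower with Wapal shRNA1 (6.01 to 6.11) and Smc3 shRNA2 (5.79 to 5.81) than on the Empty Vector arrays (6.29 to 6.66). They were higher with Wapal shRNA2 (6.72 to 6.73) and read 6.51 to 6.74 with Smc3 shRNA1. The averaged fibroblast markers were higher with Smc3 shRNA1 (5.79 to 5.83) than on the Empty Vector arrays (5.33 to 5.64). They were lower with Wapal shRNA1 (5.04 to 5.16) and Wapal shRNA2 (5.28 to 5.32). The part of these shifts in the values of the replication genes was not tested. Smc3 depletion and Wapal depletion were both compared with the same 2 Empty Vector arrays, so a deviation of those arrays enters both comparisons.

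Depletion of either protein lowered a minority of the replication genes and raised none of them past the threshold (limma on log2 intensities, Benjamini-Hochberg adjusted p under 0.05 over 45037 probe sets). After Wapal depletion, taken as the mean of both shRNAs minus Empty Vector, 5 of 45 genes fell: Cdc6, Pola2, Rrm2, Gins3 and Pole. After Smc3 depletion 7 of 45 fell: Cdc6, Ccne1, Gins3, Slbp, Pola1, Cdc45 and Rfc3. Only Cdc6 and Gins3 were in both groups. The changes were modest, from 21.6% lower for Rfc3 to 44.8% lower for Cdc6.

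These counts were read against all genes. The 5 genes that fell with Wapal depletion were 11.1% of the 45, where 4.93% of all 18193 genes fell, and 7.92% of the 9689 genes with a mean log2 intensity of 6 or more, the range that holds 44 of the 45 genes. None rose, where 2.63% of all genes and 3.13% of the brighter ones did. The 7 genes that fell with Smc3 depletion were 15.6%, where 3.94% of all genes and 6.11% of the brighter ones fell. None rose, where 6.08% and 8.08% did. In both directions together 11% of the brighter genes passed with Wapal depletion and 14.2% with Smc3 depletion. The 11.1% and 15.6% of the 45 genes were near these shares, and all of them were falls. At an unadjusted p under 0.05, 14 genes (31.1%) differed after Wapal depletion and 17 (37.8%) after Smc3 depletion, near the 33.9% and 34.2% of the brighter genes. 1 of the latter was higher (Prim2, 0.21 on the log2 scale) and every other such difference was negative.

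Most genes did not pass, and most of their changes were below 0. The log2 change was negative for 39 of 45 genes (86.7%) after Wapal depletion, where 60.9% of the brighter genes were negative, and for 43 of 45 (95.6%) after Smc3 depletion, where 49.7% were. The median was -0.17 in both. The median over all genes was 0.01 in both, and over the brighter genes it was -0.06 with Wapal and 0.00 with Smc3 depletion. On single arrays the median of the 45 genes against the Empty Vector mean lay between -0.28 and -0.07 on the 8 depleted arrays, and at -0.04 and 0.04 on the 2 Empty Vector arrays. Empty Vector had the highest mean of the 5 groups for 23 of 45 genes and the lowest for 1, whereas Smc3 shRNA1 had the lowest for 19 and Wapal shRNA1 for 15. The order of the groups was not counted over all genes, so it cannot be called particular to these 45.

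**Figure D1:**
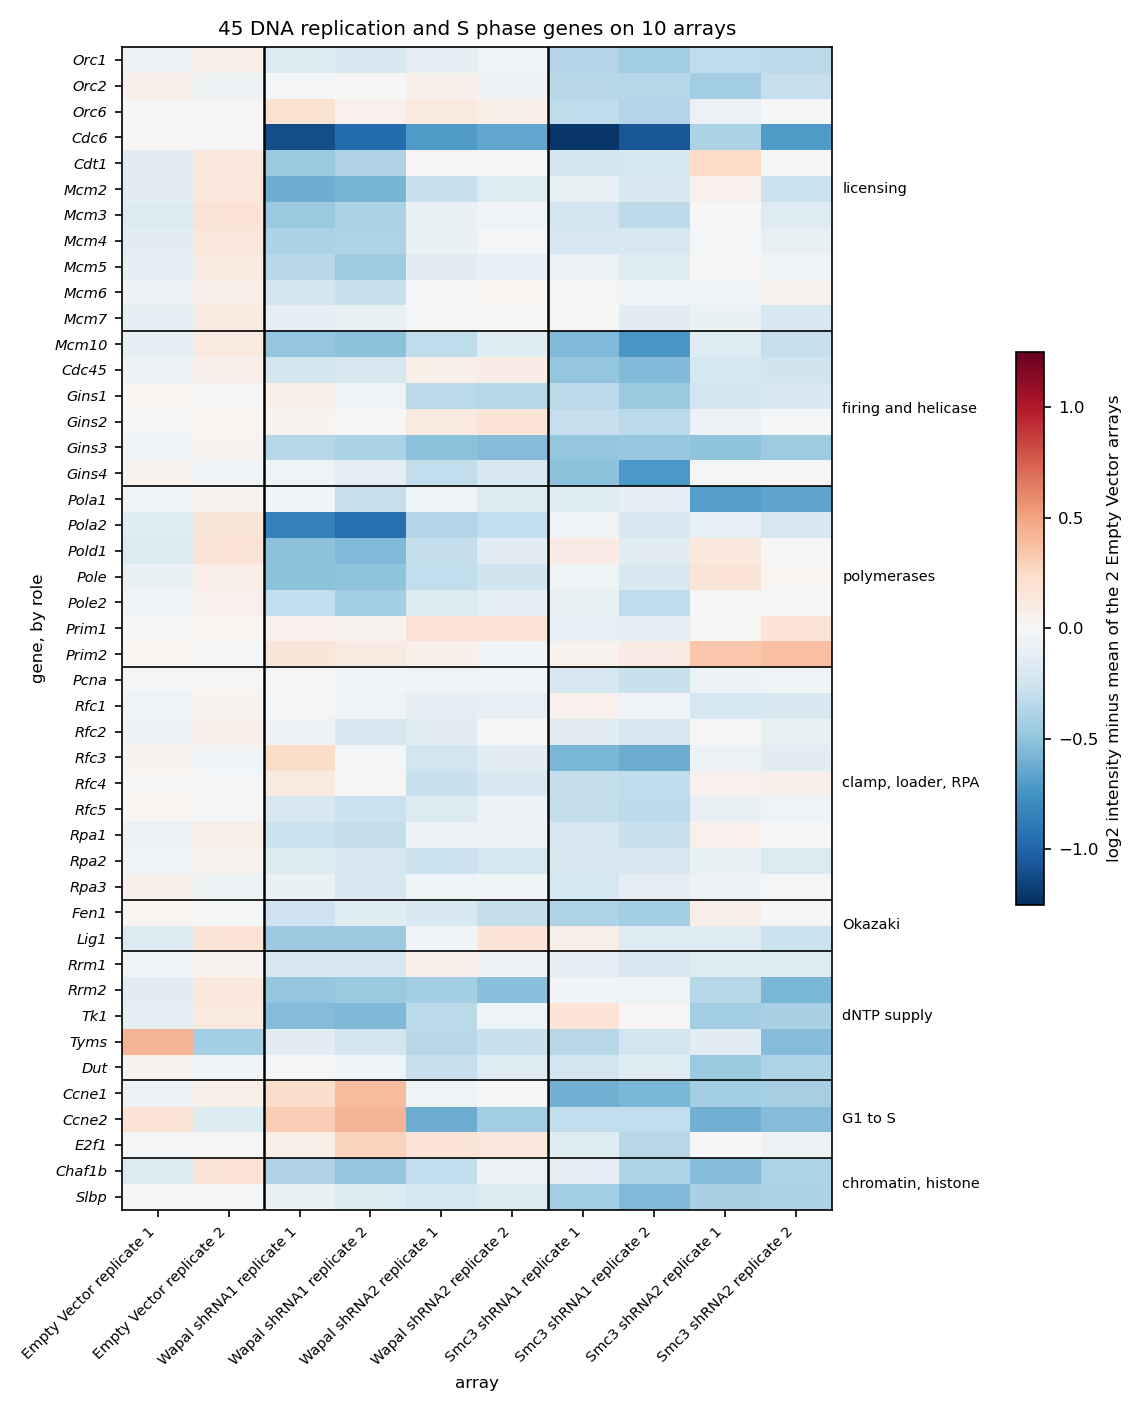
Log2 intensity of each of the 45 genes (rows, by role) on each of the 10 arrays (columns), minus the mean of the 2 Empty Vector arrays, with blue lower and red higher; black lines part the roles and the control, Wapal and Smc3 arrays. Cdc6 is blue on all 8 depleted arrays, though Pola1 is as dark with Smc3 shRNA2, and the Mcm rows differ between the 2 Empty Vector arrays.

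Among genes bright enough to rank arrays, 14 of 44 were lower on all 4 Wapal shRNA arrays than on both Empty Vector arrays, or 31.8%, where 26.9% of the 9689 brighter genes were. For Smc3 depletion it was 17 of 44, or 38.6%, where 17.6% were. 3 genes (Orc6, Prim1 and E2f1) lay higher on all 4 Wapal arrays, against a background of 12.9%, and 1 (Prim2) on all 4 Smc3 arrays, against 16.5%. The share lower after Wapal depletion was thus near the background. 7 genes lay lower on all 8 depleted arrays than on both controls: Cdc6, Mcm10, Gins3, Pcna, Rfc5, Rpa2 and Slbp, or 15.9% against 9.6%. None lay higher on all 8, where 5.12% of the brighter genes did.

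Sequence upstream of the transcription start was examined for the genes on which the results turn, because E2F sites are the known common feature of this set. RefSeq promoters (GRCm38.p6) were available for 38 of the 46 genes. The 250 bases before each start were searched on both strands for 4 forms of the E2F site, TTTCCCGC, TTTCGCGC, TTTGCCGC and TTTGGCGC, and for CCAAT, the NF-Y box. An E2F word was found for 8 of 38 genes, or 21.1%, where 2.16% of all 27025 genes with a promoter had one. The 8 were Mcm5, Mcm6, Mcm7, Cdc6, Gins3, Orc1, Pola1 and Rfc3, and in Mcm5 and Mcm6 a pair of words overlapped. CCAAT was found for 23 of 38, or 60.5%, where 37.5% of all genes had it. Of the 10 genes that fell in either depletion, 9 had a promoter and 4 of these held an E2F word, against 4 of 29 among the other genes. A match is a description of letters and not a mapped binding site.

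The promoters of the 2 genes that fell in both depletions, Cdc6 and Gins3, are printed 5′ to 3′ over these 250 bases with E2F words and CCAAT in capitals. Those of Pola2 and Ccne1, which differed most between the depletions, follow for comparison and hold neither word. Orc1, Pola1 and Rfc3 hold an E2F word and also differed between the depletions. Mcm5, Mcm6 and Mcm7 hold one and passed in neither depletion. Whether E2F words go with the falls was not tested. Cdc6 lies at chr11:98907901-98908150 on the plus strand, Gins3 at chr8:95633309-95633558 on the plus strand, Pola2 at chr19:5964207-5964456 on the minus strand and Ccne1 at chr7:38107491-38107740 on the minus strand.
Cdc6: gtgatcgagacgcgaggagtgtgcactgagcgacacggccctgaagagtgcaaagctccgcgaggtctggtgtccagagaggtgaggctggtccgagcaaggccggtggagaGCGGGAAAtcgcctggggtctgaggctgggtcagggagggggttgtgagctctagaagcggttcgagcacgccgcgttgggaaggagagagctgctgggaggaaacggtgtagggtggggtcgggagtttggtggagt
Gins3: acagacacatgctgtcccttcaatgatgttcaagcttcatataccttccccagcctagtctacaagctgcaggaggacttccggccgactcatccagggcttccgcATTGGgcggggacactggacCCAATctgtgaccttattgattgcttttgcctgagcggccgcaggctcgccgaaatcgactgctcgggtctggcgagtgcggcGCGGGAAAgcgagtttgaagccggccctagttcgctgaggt
Pola2: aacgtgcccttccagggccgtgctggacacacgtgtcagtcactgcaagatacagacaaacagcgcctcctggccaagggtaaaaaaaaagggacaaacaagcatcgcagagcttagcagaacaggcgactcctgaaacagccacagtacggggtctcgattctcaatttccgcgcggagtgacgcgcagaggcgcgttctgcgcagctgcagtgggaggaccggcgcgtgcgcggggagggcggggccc
Ccne1: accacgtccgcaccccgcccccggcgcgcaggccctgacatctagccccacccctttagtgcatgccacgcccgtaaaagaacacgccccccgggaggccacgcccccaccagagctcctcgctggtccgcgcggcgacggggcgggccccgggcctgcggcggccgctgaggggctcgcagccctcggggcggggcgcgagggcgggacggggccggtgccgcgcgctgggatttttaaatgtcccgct

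The E2F word of Cdc6 began 138 bases before the start and that of Gins3 41 bases before it. Both were the form TTTCCCGC, read on the other strand. Other forms stood upstream of Pola1 (TTTGGCGC, on the other strand) and Rfc3 (TTTCGCGC), which fell with Smc3 depletion, and 60 bases around each are given with the word in capitals. The Pola1 stretch is chrX:93632260-93632319 and the Rfc3 stretch chr5:151651209-151651268, both on the minus strand, and the words began 138 and 10 bases before the start.
Pola1: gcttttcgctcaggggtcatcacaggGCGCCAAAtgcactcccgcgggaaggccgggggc
Rfc3: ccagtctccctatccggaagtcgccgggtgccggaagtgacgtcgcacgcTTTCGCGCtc

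Within origin recognition and licensing, Cdc6 was the only gene that passed in the main fit of either depletion. Cdc6, the ATPase that joins Orc at the origin to load the Mcm helicase, read 849.6 and 832.9 on the Empty Vector arrays. It read 389.9 and 429.8 with Wapal shRNA1 beside 517.3 and 536.2 with Wapal shRNA2. It read 362.1 and 401.4 with Smc3 shRNA1 beside 640.1 and 515 with Smc3 shRNA2. All 8 depleted arrays were below both controls, and the highest of them, Smc3 shRNA2 replicate 1, was still clearly lower.

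Cdc6 fell by 0.86 on the log2 scale after Wapal depletion (SE 0.09, adjusted p = 0.00533), which is 44.8% lower. After Smc3 depletion it fell by 0.85 (SE 0.11, adjusted p = 0.00396), 44.4% lower. It also fell with each of the 4 shRNAs alone: by 1.04 with Wapal shRNA1, 0.68 with Wapal shRNA2, 1.14 with Smc3 shRNA1 and 0.55 with Smc3 shRNA2. The adjusted p of these ranged from 0.00195 to 0.039. The fall with Smc3 shRNA1 was larger than that with Smc3 shRNA2 (difference -0.59, SE 0.13, adjusted p = 0.026), whereas Wapal and Smc3 depletion differed by -0.01 (95% confidence interval -0.20 to 0.18). Cdc6 was the only gene of the 45 to pass in both depletions whichever array was left out, and it passed under all 9 other settings tried. Adjusted p reached 0.0326 for Wapal and 0.0202 for Smc3 depletion with 1 array left out.

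The other licensing genes did not pass in either depletion. Mcm2 to Mcm7, the 6 subunits of the ring helicase, had log2 changes of -0.41 to -0.06 after Wapal depletion and -0.18 to -0.01 after Smc3 depletion. Of these 6, Mcm2 was nearest to the threshold, with 1621 and 1947 on the 2 control arrays, 1163 and 1186 with Wapal shRNA1 beside 1467 and 1581 with Wapal shRNA2. The Wapal arrays were lower than both controls (change -0.41, SE 0.11, adjusted p = 0.0613), and Mcm2 passed with Wapal shRNA1 alone (-0.60, adjusted p = 0.0348). With Smc3 depletion Mcm2 read 1658 and 1553, then 1847 and 1482, within or below the range of the controls.

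The Mcm genes were also among those in which the controls disagreed. Empty Vector replicate 2 exceeded replicate 1 by 0.26 for Mcm2, 0.35 for Mcm3, 0.28 for Mcm4, 0.23 for Mcm5 and 0.22 for Mcm7, and by a median of 0.08 over the 45 genes and 0.04 over all genes. Earlier results of these data had split the arrays into Empty Vector replicate 1, Wapal shRNA1 and Smc3 shRNA2 on one side and the other 5 arrays on the other. Within these sides Mcm2 was lower by 0.47 with Wapal shRNA1 and 0.35 with Wapal shRNA2, and differed by 0.03 with Smc3 shRNA2 and -0.28 with Smc3 shRNA1. With the side as a term in the model, in place of a mean for each shRNA, Mcm2 passed for Wapal depletion (adjusted p = 0.0331). The sides were drawn from these same arrays, and among the Wapal arrays the side is the shRNA. This call is therefore not independent support. The cause of the split was not tested.

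Orc genes separated the depletions. Orc2, a core Orc subunit, read 2103 and 1926 on the Empty Vector arrays, 1976, 2025, 2109 and 1930 on the 4 Wapal shRNA arrays, and 1588, 1576, 1484 and 1646 on the 4 Smc3 shRNA arrays. All Smc3 arrays were below all 6 others, while the Wapal arrays spanned the controls. The change was 0.00 after Wapal and -0.36 after Smc3 depletion (adjusted p = 0.06), and the difference of 0.35 between the depletions passed (SE 0.07, adjusted p = 0.00763). Orc6, which binds the Orc ring, read 1393 and 1400 on the controls, 1453 to 1596 with Wapal shRNAs and 1083 to 1393 with Smc3 shRNAs, and was likewise higher with Wapal than with Smc3 depletion (0.30, SE 0.07, adjusted p = 0.0124). Orc1, the large ATPase subunit, differed by 0.22 (SE 0.07, adjusted p = 0.0484), a call that was lost without any one of the 8 depleted arrays. A second Orc2 probe set gave a difference of 0.37 (adjusted p = 0.0137) and another 0.10 (adjusted p = 0.363), and the second Orc1 probe set gave 0.48 (adjusted p = 0.00844). Cdt1, the licensing partner of Cdc6, changed by -0.21 with Wapal and -0.05 with Smc3 depletion, and neither passed.

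**Figure D2:**
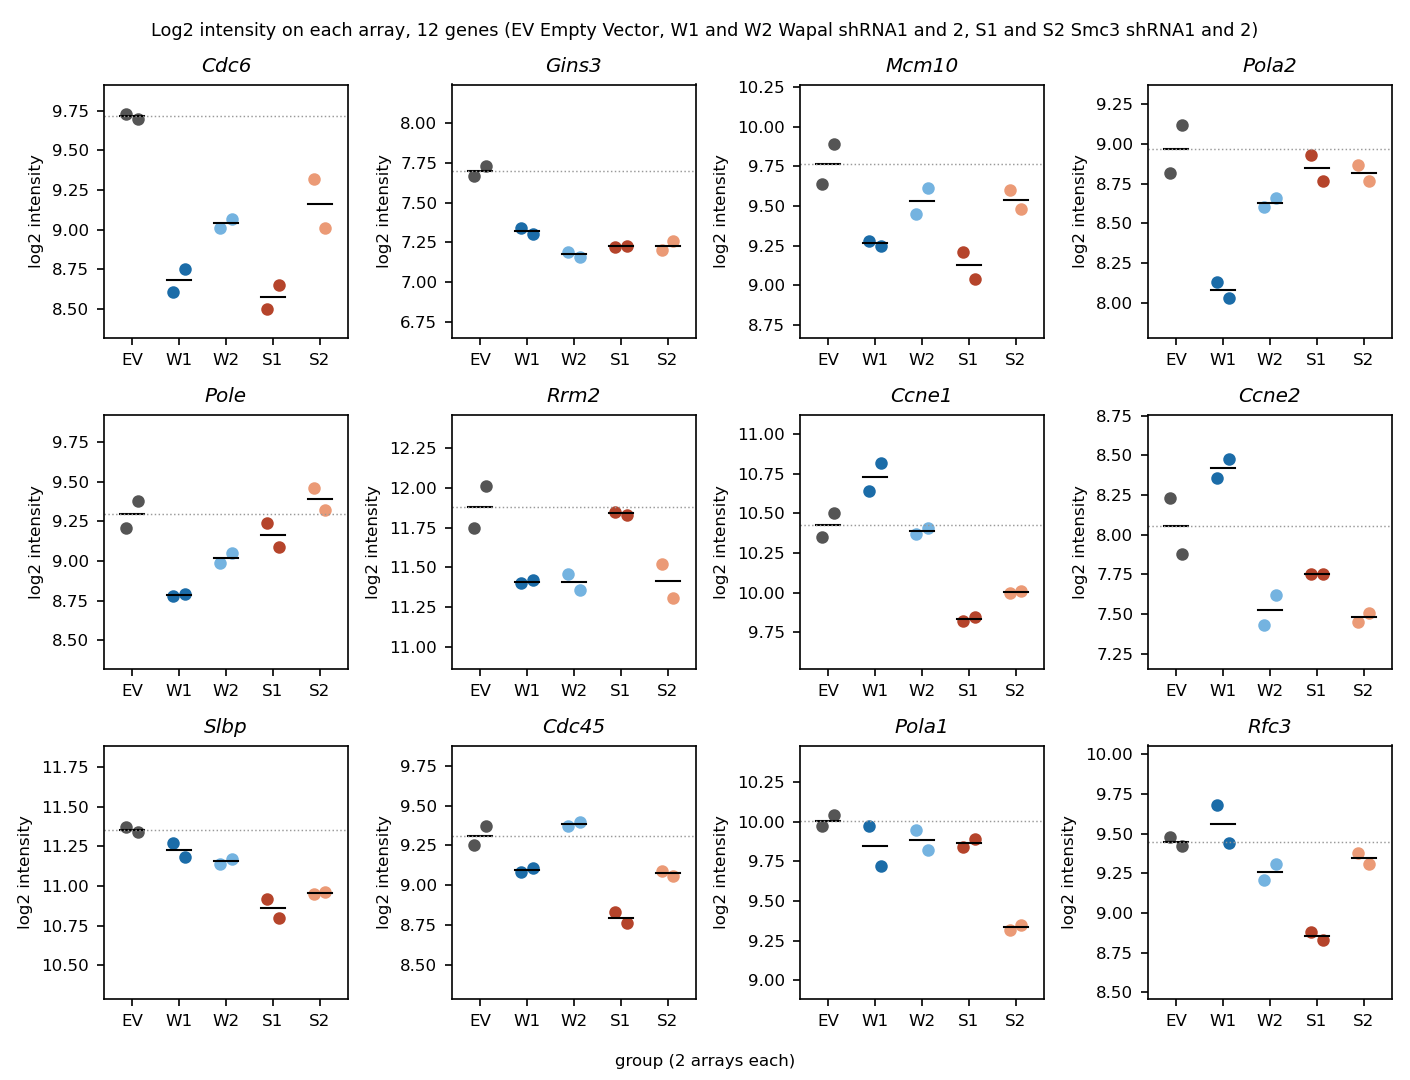
Log2 intensity of 12 genes on each array, 1 panel per gene with a vertical axis of 1.6 log2 units, points for arrays, short black lines for the mean of the 2 arrays of a group and a dotted line at the Empty Vector mean. Cdc6 and Gins3 lie below both controls on all 8 depleted arrays, whereas Pola2 and Ccne1 part the Wapal from the Smc3 arrays.

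Gins3 was the second gene that fell in both depletions. In the main fit, the other genes of origin firing and helicase activation passed the threshold, if at all, only with Smc3 shRNAs. Gins3, 1 of the 4 subunits of the GINS complex in the active helicase, read 203.3 and 212.3 on the Empty Vector arrays. It read 161.8, 157.3, 146.4 and 143 on the Wapal shRNA arrays and 148.7, 150.6, 147.3 and 152.8 on the Smc3 shRNA arrays. The 8 depleted arrays stayed within a narrow band below the controls. The fall was 0.45 after Wapal depletion (SE 0.09, adjusted p = 0.029) and 0.47 after Smc3 depletion (SE 0.09, adjusted p = 0.0151), and the depletions differed by 0.02 (95% confidence interval -0.12 to 0.16). Its second, dimmer probe set changed by -0.44 and -0.36 and passed in neither (adjusted p = 0.121 and 0.0832). The Wapal call was lost with any 1 array left out (adjusted p up to 0.0931), and the Smc3 call was lost without any array but Empty Vector replicate 2 (up to 0.0576).

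Cdc45, the helicase cofactor loaded as origins fire, read 610.4 and 663.6 on the controls, 539.5 and 552.7 with Wapal shRNA1 beside 660.8 and 675.6 with Wapal shRNA2. With Smc3 shRNA1 it read 455.3 and 432.2, and with Smc3 shRNA2 543.3 and 532.5. The Smc3 arrays were below both controls, while Wapal shRNA1 was below them and Wapal shRNA2 near the higher one. Cdc45 fell by 0.38 after Smc3 depletion (SE 0.09, adjusted p = 0.0398), changed by -0.08 after Wapal depletion, and was higher with Wapal than with Smc3 depletion by 0.31 (SE 0.07, adjusted p = 0.0105). The fall with Smc3 depletion was lost without any 1 of its 6 arrays (adjusted p up to 0.124).

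The remaining firing genes were lower with Smc3 shRNA1 in particular, though Gins1 was also lower with Wapal shRNA2. Gins1 read 1751 and 1683 on the controls, 1824 and 1666 with Wapal shRNA1 beside 1361 and 1339 with Wapal shRNA2. With Smc3 shRNAs it read 1356, 1243, 1466 and 1501, and it passed in neither depletion. Mcm10, which activates the helicase, read 797 and 947.4 on the controls, 610.9 to 781.9 with Wapal shRNAs and 524.7 to 775 with Smc3 shRNAs. All 8 depleted arrays were lower than both controls, and the changes of -0.36 (adjusted p = 0.0881) and -0.43 (adjusted p = 0.0511) did not pass. With Smc3 shRNA1 alone Mcm10 fell by 0.64 (SE 0.13, adjusted p = 0.0185), Gins4 by 0.61 (SE 0.11, adjusted p = 0.0136) and Cdc45 by 0.52 (SE 0.10, adjusted p = 0.0196). Gins4, another GINS subunit, read 961.9 and 838.6 with Smc3 shRNA1 but 1348 and 1353 with Smc3 shRNA2, the latter within the controls (1418 and 1329), and the 2 Smc3 shRNAs differed (-0.59, adjusted p = 0.0149). Gins2 was higher with Wapal than with Smc3 depletion (0.26, SE 0.06, adjusted p = 0.0181), and its second probe set gave 0.29 (adjusted p = 0.0178). The Gins2 difference was lost with the side of the array split, described above, as a term and without any one of 4 arrays, and the Cdc45 difference was lost with that term alone.

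The replicative polymerases were the role in which the 2 depletions lowered different genes. Pola2, the regulatory subunit of the polymerase alpha-primase complex, read 451.7 and 557.8 on the 2 control arrays, 280.7 and 261.2 with Wapal shRNA1 beside 388.1 and 403.7 with Wapal shRNA2. With Smc3 shRNAs it read 488, 437, 466.7 and 435.4, overlapping the lower control. It fell by 0.62 after Wapal depletion, 34.8% lower (SE 0.11, adjusted p = 0.0219), and changed by -0.14 after Smc3 depletion (adjusted p = 0.558). The difference of -0.48 between the depletions passed (SE 0.09, adjusted p = 0.00353). Leaving out any array other than Empty Vector replicate 1 lost the Wapal call (adjusted p up to 0.0793), and the mean of its 3 probe sets, 2 of them dim, changed by -0.27 (adjusted p = 0.101).

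Pole, the catalytic subunit of the leading-strand polymerase epsilon, read 593.7 and 664.8 on the controls, 439.3 and 442.7 with Wapal shRNA1 beside 507.9 and 529.8 with Wapal shRNA2. With Smc3 shRNAs it read 606.3, 546.3, 704.2 and 638.9, on both sides of the controls. It fell by 0.39 after Wapal depletion (SE 0.09, adjusted p = 0.0492), just inside the threshold and lost without any 1 of the 6 arrays (adjusted p up to 0.153). The depletions differed by -0.38 (SE 0.08, adjusted p = 0.00652). Pold1, the catalytic subunit of polymerase delta, read 611 and 780 on the controls, 471.8 to 628.9 with Wapal shRNAs and 623.8 to 757.9 with Smc3 shRNAs. It did not pass against Empty Vector (-0.37, adjusted p = 0.11, and 0.03, adjusted p = 0.938) but was lower with Wapal than with Smc3 depletion by 0.40 (SE 0.10, adjusted p = 0.0171), and its second probe set gave -0.52 (adjusted p = 0.0106).

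Pola1 went the other way. The catalytic subunit of polymerase alpha read 999.8 and 1049 on the controls, 840.6 to 1000 with Wapal shRNAs, 917 and 946.8 with Smc3 shRNA1 beside 638.6 and 654.6 with Smc3 shRNA2. The fall of 0.40 after Smc3 depletion (SE 0.09, adjusted p = 0.0293) came mainly from shRNA2, which alone gave a fall of 0.66 (SE 0.10, adjusted p = 0.00744), and the 2 Smc3 shRNAs differed by 0.53 (adjusted p = 0.0152). Without any 1 of its 6 arrays the Smc3 call was lost (adjusted p up to 0.0949). The primase genes Prim1 and Prim2, which make the RNA primers, had positive or near-zero changes in both depletions, from -0.01 to 0.21, and neither passed. Pole2, the second polymerase epsilon subunit, changed by -0.26 and -0.12.

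Of the clamp, its loader and the single-strand binding proteins 1 gene passed, with Smc3 depletion. The 9 genes had log2 changes of -0.22 to -0.04 after Wapal depletion, none past the threshold, and -0.35 to -0.10 after Smc3 depletion, where 1 passed. Rfc3, a small subunit of the clamp loader, read 714.8 and 683.9 on the controls, 591.2 to 819.1 with Wapal shRNAs, 470.9 and 454.4 with Smc3 shRNA1 beside 664.2 and 635.3 with Smc3 shRNA2. All Smc3 arrays were below the controls, most clearly with shRNA1. Rfc3 fell by 0.35 (SE 0.09, adjusted p = 0.0487), was lost without any 1 array (adjusted p up to 0.19), and was higher with Wapal than with Smc3 depletion by 0.31 (SE 0.08, adjusted p = 0.0177). Its second probe set gave changes of -0.11 and -0.42 (adjusted p = 0.597 and 0.0521).

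Pcna, the sliding clamp, read 13350 and 13490 on the controls, 12970 to 13340 with Wapal shRNAs and 11070 to 13010 with Smc3 shRNAs. All 8 depleted arrays were lower, the nearest of them only marginally, and the changes of -0.04 (95% confidence interval -0.24 to 0.16) and -0.15 (-0.35 to 0.05) did not pass. Rpa2, of the trimer that coats single-stranded DNA, had the largest change of this role with Wapal depletion. It read 1956 and 2061 on the controls, 1771, 1752, 1668 and 1728 with Wapal shRNAs and 1763, 1740, 1903 and 1772 with Smc3 shRNAs. The changes were -0.22 (SE 0.09, adjusted p = 0.194) and -0.16 (SE 0.09, adjusted p = 0.352), although no depleted array reached the controls.

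Okazaki fragment maturation was represented by Fen1, the flap nuclease, and Lig1, the ligase. Fen1 read 2849 and 2755 on the controls, 2358, 2528, 2449 and 2287 with Wapal shRNAs, 2156 and 2090 with Smc3 shRNA1 beside 2966 and 2768 with Smc3 shRNA2. Only Smc3 shRNA1 gave a fall that passed (0.40, SE 0.10, adjusted p = 0.0485), and the 2 Smc3 shRNAs differed (-0.43, adjusted p = 0.0341). Over both shRNAs the change was -0.22 (SE 0.09, adjusted p = 0.199) with Wapal and -0.18 (SE 0.09, adjusted p = 0.283) with Smc3 depletion. Lig1 changed by -0.19 and -0.13, with controls 0.35 apart.

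Of the genes that supply deoxynucleotides, Rrm2 fell with Wapal depletion. Rrm2, the S phase-limited small subunit of ribonucleotide reductase, read 3447 and 4119 on the controls, 2708 and 2734 with Wapal shRNA1 beside 2819 and 2636 with Wapal shRNA2. With Smc3 shRNA1 it read 3686 and 3641, between the controls, and with Smc3 shRNA2 2932 and 2546, below both. It fell by 0.47 after Wapal depletion (SE 0.10, adjusted p = 0.0418), lost without any 1 array (adjusted p up to 0.131), and changed by -0.25 after Smc3 depletion (adjusted p = 0.233). The depletions differed by -0.22, which did not pass (95% confidence interval -0.40 to -0.04, adjusted p = 0.0966). Its other probe sets changed by -0.50 and -0.57 with Wapal depletion (adjusted p = 0.0562 and 0.0502).

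Rrm1, the large reductase subunit, changed by -0.10 and -0.16. Tk1, thymidine kinase, changed by -0.38 and -0.17, and it was higher with Smc3 shRNA1 (753.4 and 677.8) than with Smc3 shRNA2 (498.3 and 503.6), a difference of 0.51 (adjusted p = 0.0327). Dut, which removes dUTP, changed by -0.13 and -0.31 and fell with Smc3 shRNA2 alone (0.42, SE 0.10, adjusted p = 0.0447). Tyms, thymidylate synthase, was the dimmest gene. Its Empty Vector arrays read 81.83 and 45.15, its Wapal arrays 54.82, 51.76, 47.86 and 50.22, and its Smc3 arrays 47.73, 51.59, 54.82 and 41.54. The 2 controls bracketed all 8 depleted arrays apart from the last, and the change of -0.32 after Smc3 depletion (SE 0.22, adjusted p = 0.462) became 0.11 without Empty Vector replicate 1.

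**Figure D3:**
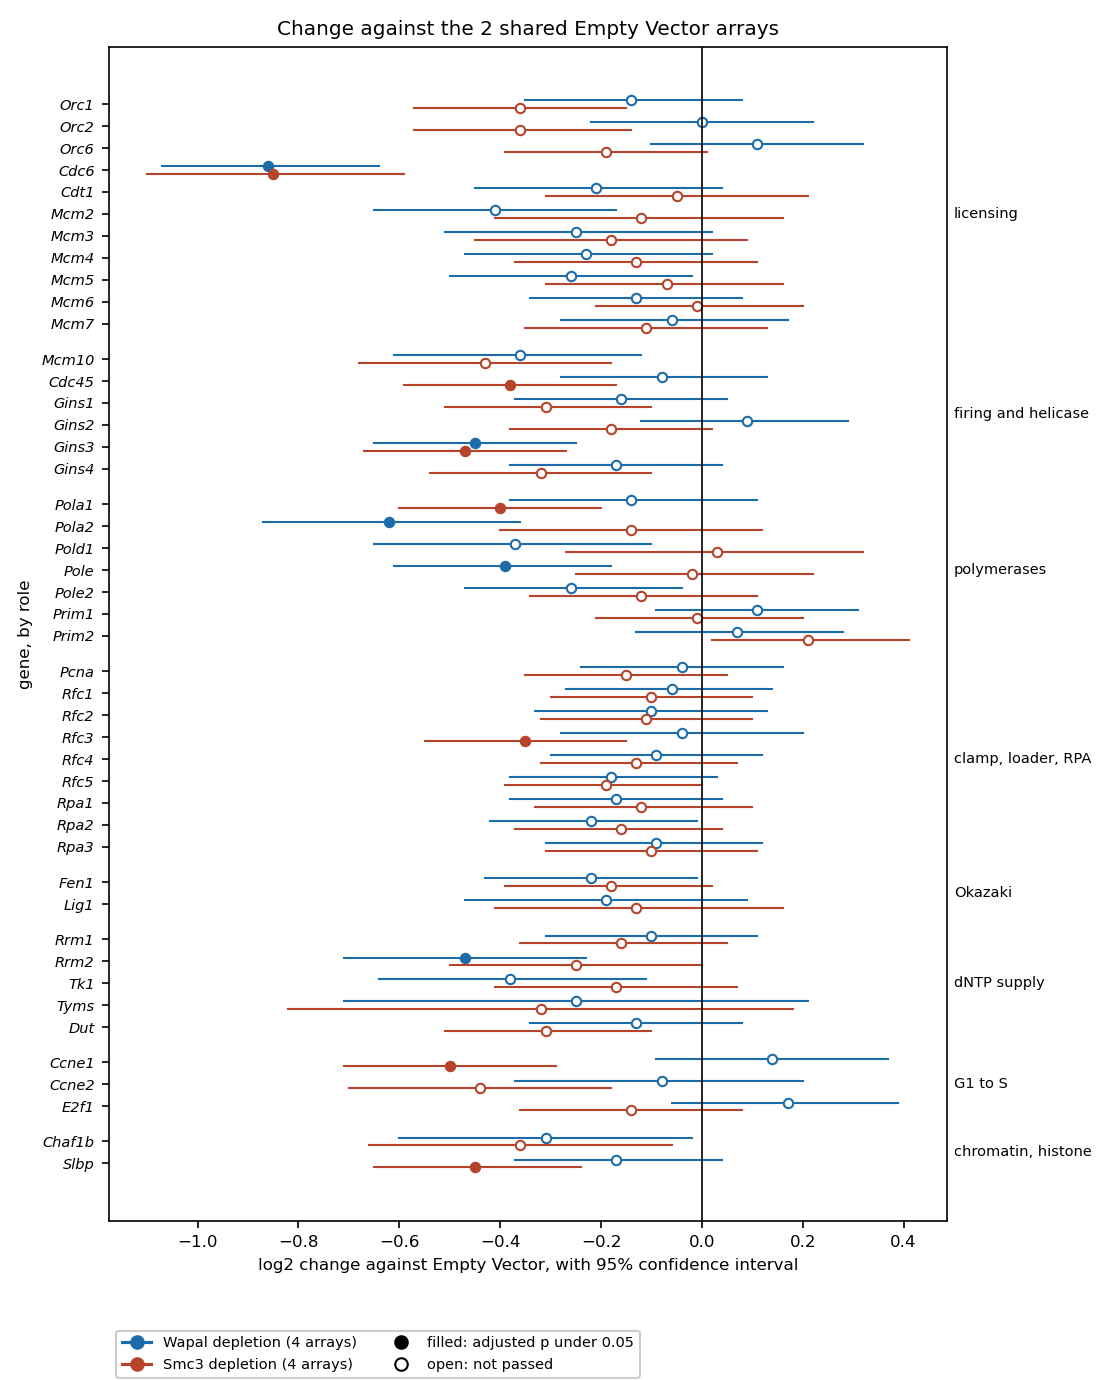
Log2 change of each gene against the 2 Empty Vector arrays after Wapal depletion (blue) and Smc3 depletion (red), with 95% confidence intervals and filled points at an adjusted p under 0.05. The intervals of Cdc6 in both depletions lie at or below -0.59, and both sets of points share the same 2 control arrays.

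Among the roles of the module, the regulators of S phase entry gave the clearest contrast between the depletions. Ccne1, cyclin E1, which activates Cdk2 at the G1 to S transition, read 1303 and 1450 on the controls. It read 1601 and 1804 with Wapal shRNA1 beside 1322 and 1362 with Wapal shRNA2, but 906 and 922.9 with Smc3 shRNA1 beside 1026 and 1030 with Smc3 shRNA2. All 4 Smc3 arrays were below both controls and all 4 Wapal arrays were above the Smc3 arrays. Ccne1 fell by 0.50 after Smc3 depletion, 29.5% lower (SE 0.09, adjusted p = 0.0141), and changed by 0.14 after Wapal depletion (SE 0.10, adjusted p = 0.456). The depletions differed by 0.64 (SE 0.07, adjusted p = 0.000287), the largest difference among the 45 genes, and a second Ccne1 probe set gave 0.61 (adjusted p = 0.000807). The fall against Empty Vector was lost without Empty Vector replicate 2, Smc3 shRNA1 replicate 1 or either Smc3 shRNA2 array (adjusted p up to 0.0561).

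Ccne2, cyclin E2, depended on the shRNA. It read 299.7 and 236 on the controls, 328.5 and 356 with Wapal shRNA1, 172.5 and 196.7 with Wapal shRNA2, 215.2 and 214.9 with Smc3 shRNA1 beside 174.4 and 182 with Smc3 shRNA2. The 2 Wapal shRNAs lay on opposite sides of the controls and differed by 0.89 (SE 0.14, adjusted p = 0.0348). Smc3 shRNA2 alone gave a fall of 0.58 (SE 0.13, adjusted p = 0.0334). Wapal exceeded Smc3 depletion by 0.36 (SE 0.09, adjusted p = 0.0194), and this mean hides the disagreement of the Wapal shRNAs.

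E2f1, the transcription factor of S phase genes, read 189.2 and 191.5 on the controls, 201.1, 232.7, 212.4 and 209 with Wapal shRNAs and 170.9, 149.5, 189.5 and 182.4 with Smc3 shRNAs. Its 4 Wapal arrays were above both controls and did not pass (0.17, SE 0.10, adjusted p = 0.351), while Wapal exceeded Smc3 depletion by 0.31 (SE 0.08, adjusted p = 0.0198). The other E2f1 probe sets gave 0.14 and 0.15, which did not pass.

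Slbp, which binds the stem-loop of replication-dependent histone mRNAs, read 2651 and 2597 on the controls, 2476, 2320, 2262 and 2302 with Wapal shRNAs and 1943, 1788, 1980 and 1993 with Smc3 shRNAs. The 3 conditions did not overlap, with the Smc3 arrays lowest. Slbp fell by 0.45 after Smc3 depletion, 26.7% lower (SE 0.09, adjusted p = 0.0205), changed by -0.17 after Wapal depletion (SE 0.09, adjusted p = 0.307), and the depletions differed by 0.28 (SE 0.07, adjusted p = 0.0161). A second, dimmer Slbp probe set changed by -0.51 with Wapal and -0.54 with Smc3 depletion, passed in neither, and gave a difference of 0.03 (adjusted p = 0.882). The difference between the depletions was lost with the mean of the Slbp probe sets. The Smc3 call was lost without Empty Vector replicate 1, Smc3 shRNA1 replicate 2 or either Smc3 shRNA2 array (adjusted p up to 0.0894). Chaf1b, of the histone chaperone CAF-1, read 394.3 and 506.8 on the controls, 344.6, 320.6, 361.1 and 424.4 with Wapal shRNAs and 412.6, 341.5, 305.5 and 342.6 with Smc3 shRNAs. Its changes of -0.31 (SE 0.13, adjusted p = 0.193) and -0.36 (SE 0.13, adjusted p = 0.159) were of the size of the gap of 0.36 between the controls.

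Compared directly, Wapal and Smc3 depletion left different replication genes lower. 11 of 45 genes were higher with Wapal than with Smc3 depletion, or 24.4%, where 7.66% of all genes and 9.47% of the brighter genes were. They were Orc1, Orc2, Orc6, Cdc45, Gins2, Pola1, Rfc3, Ccne1, Ccne2, E2f1 and Slbp. 3 genes, all polymerase subunits (Pola2, Pold1 and Pole), were lower, or 6.67%, where 14.8% of all genes and 22.8% of the brighter genes were. In both directions together this was 31.1% of the 45 genes, near the 32.3% of the brighter genes. The Empty Vector arrays do not enter the size of this difference, but they add to the estimate of its spread. The median difference was 0.03 over the 45 genes, 0.01 over all genes and -0.06 over the brighter ones. 5 of the 14 calls (Orc2, Orc6, Ccne1, Pola2 and Pole) held without any 1 array and under all 9 other settings, and those of Orc1, Cdc45, Gins2, Pola1 and Ccne2 were lost with the side term. By role, all 3 regulators of S phase entry and 3 of 11 licensing genes were higher with Wapal than with Smc3 depletion, against none of 5 nucleotide genes in either direction. Leaving out Wapal shRNA1 replicate 1 gave 6 higher genes, Wapal shRNA2 replicate 2 gave 4, Smc3 shRNA1 replicate 2 gave 4, Smc3 shRNA2 replicate 1 gave 6 and Smc3 shRNA2 replicate 2 gave 7.

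**Figure D4:**
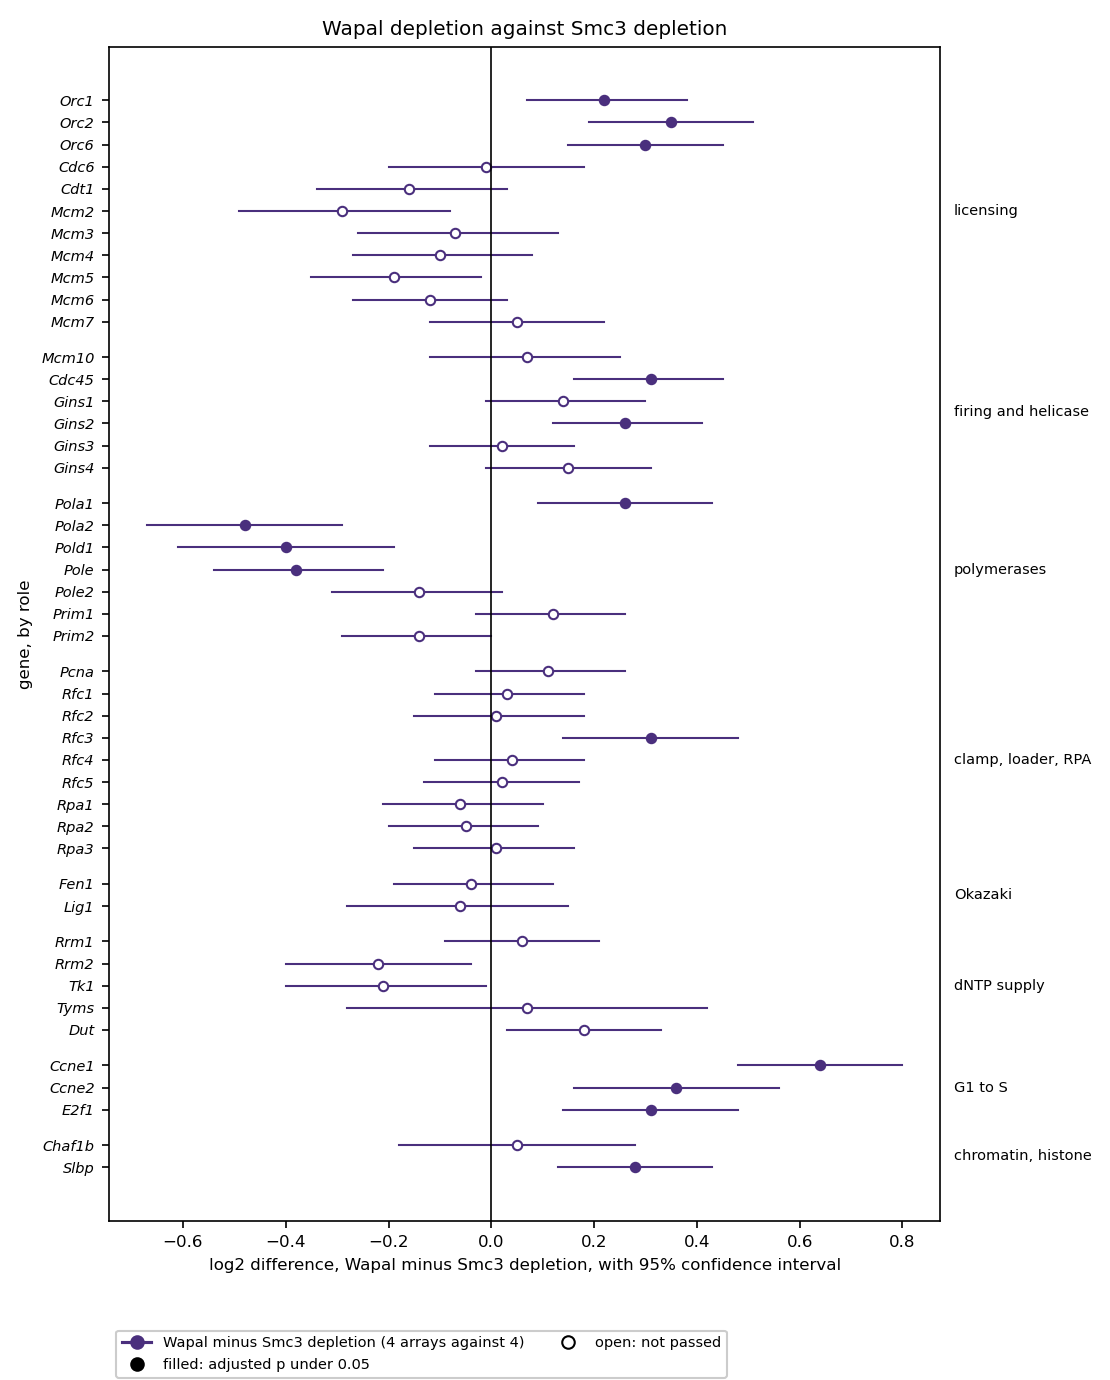
Difference of each gene between Wapal depletion and Smc3 depletion in log2 units (4 arrays against 4) with its 95% confidence interval, filled at an adjusted p under 0.05. Ccne1 lies farthest to the right at 0.64 and Pola2 farthest to the left at -0.48, while Cdc6 and Gins3 lie at -0.01 and 0.02.

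The counts against Empty Vector rested on all 6 arrays of each comparison. Without Empty Vector replicate 1 the genes that fell with Wapal depletion were Cdc6 and Pola2, and without Empty Vector replicate 2 they were Cdc6 and Tyms. Without any 1 of the 4 Wapal shRNA arrays it was Cdc6 alone. With Smc3 depletion 2 genes fell without Empty Vector replicate 1 (Cdc6 and Ccne1) and 5 without replicate 2 (Cdc6, Gins3, Tyms, Ccne2 and Slbp). 2 fell without Smc3 shRNA1 replicate 1 (Cdc6 and Slbp) or replicate 2 (Cdc6 and Ccne1), and Cdc6 alone without either Smc3 shRNA2 array. A group left with 1 array is assumed in these fits to vary like the others. Fewer of all probe sets passed in these fits too, apart from Smc3 depletion without Empty Vector replicate 2.

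Taken shRNA by shRNA, no gene rose against Empty Vector and Cdc6 was the gene that fell with all 4. Wapal shRNA1 lowered 4 of 45 genes (Cdc6, Pola2, Mcm2 and Pole), or 8.89%, where 4.39% of all genes and 6.99% of the brighter ones fell and 1.64% of all genes rose. Wapal shRNA2, which left less Wapl RNA, lowered 2 (Cdc6 and Gins3), or 4.44%, near the background of 2.67% of all and 4.25% of the brighter genes, while 2.14% of all genes rose. Smc3 shRNA1 lowered 9 (Cdc6, Mcm10, Gins4, Rfc3, Ccne1, Cdc45, Slbp, Gins3 and Fen1), where 4.14% of all and 6.48% of the brighter genes fell and 7.42% of all genes rose. Smc3 shRNA2 lowered 6 (Pola1, Ccne2, Cdc6, Gins3, Dut and Ccne1), or 13.3%, where 4.57% of all and 7.05% of the brighter genes fell and 4.95% of all genes rose. With 1 of a group's 2 arrays left out, the count for Wapal shRNA1 ranged from 0 to 8 and for Smc3 shRNA2 from 0 to 4.

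Both shRNAs against a target were also compared with each other. For Wapal, 1 gene differed (Ccne2, higher with shRNA1), where 0.434% of all genes were higher and 1.02% lower. For Smc3, 2 were higher with shRNA1 (Pola1 and Tk1) and 4 lower (Cdc6, Gins4, Rfc3 and Fen1), where 7.87% and 4.63% of all genes were. Median changes against Empty Vector were -0.19 and -0.12 for Wapal shRNA1 and shRNA2, and -0.24 and -0.11 for Smc3 shRNA1 and shRNA2. Licensing and polymerase genes were lowest with Wapal shRNA1 (medians -0.39 and -0.36), firing genes with Smc3 shRNA1 (-0.50), and nucleotide genes with Smc3 shRNA2 (-0.42).

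**Figure D5:**
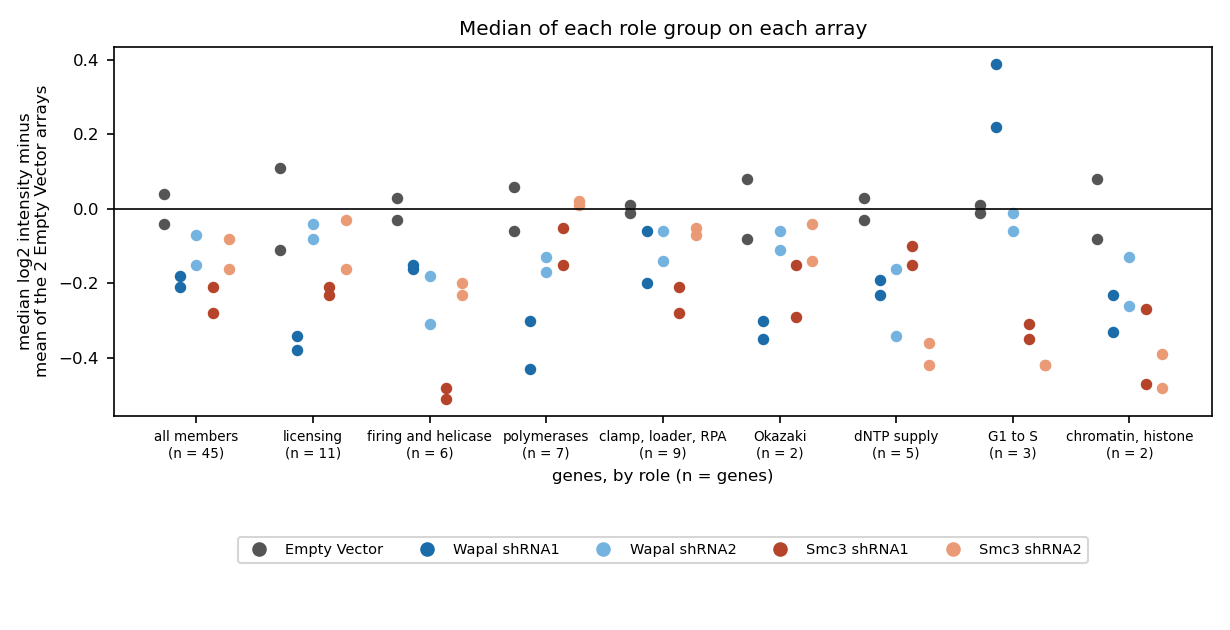
Median over the genes of each role of the log2 intensity minus the Empty Vector mean, 1 point per array, colored by group, with the number of genes under each role. On all 4 Smc3 arrays the regulators of S phase entry lie below 0, whereas the 2 Wapal shRNA1 arrays lie above it. The 2 Wapal shRNA2 arrays lie close to 0, just below it.

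Related genes outside the 45 were read from lists of the same pathway. Of 41 other fork and origin genes, 3 (7.32%) fell with Wapal depletion and 6 (14.6%) with Smc3 depletion, and none rose. The first share was near the 7.92% of the brighter genes that fell with Wapal depletion, and the second stood beside 6.11% for Smc3 depletion. Ticrr, which with Cdk brings the firing factors to origins, fell in both (by 0.50, adjusted p = 0.0247, and by 0.69, adjusted p = 0.00796). So did Dna2, a nuclease and helicase of Okazaki flaps (by 0.44 and 0.49, adjusted p = 0.0383 and 0.0159). Pole4, a small polymerase epsilon subunit, fell with Smc3 depletion (by 0.48, adjusted p = 0.017) and was higher with Wapal than with Smc3 depletion (0.43, adjusted p = 0.00244). The medians of this list were -0.11 and -0.14.

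Of 29 nucleotide synthesis genes outside the list, 6 fell with Wapal and 3 with Smc3 depletion, and none rose. Compared directly, 6 were lower with Wapal than with Smc3 depletion, or 20.7%, between the 14.8% of all genes and the 22.8% of the brighter genes given above. The shares that fell against Empty Vector were 20.7% and 10.3%, where 7.92% and 6.11% of the brighter genes did. Cad, the enzyme of the first steps of pyrimidine synthesis, fell by 0.59 with Wapal depletion (adjusted p = 0.025) and was lower than with Smc3 depletion by 0.53 (adjusted p = 0.00666). Atic and Pfas, of purine synthesis, fell by 0.57 and 0.49 (adjusted p = 0.0162 and 0.0282) and also differed between the depletions (-0.42 and -0.37, adjusted p = 0.00399 and 0.0101). Ppat, the first step of purine synthesis, fell in both (by 0.42 and 0.43, adjusted p = 0.0352 and 0.0248).

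Larger changes were found among 39 other G1 to S regulators. 8 fell (20.5%) and 2 rose (5.13%) with Wapal depletion, where 7.92% and 3.13% of the brighter genes did. With Smc3 depletion 8 fell (20.5%) and 6 rose (15.4%), where 6.11% and 8.08% did. Myc fell in both (changes of -1.43 and -1.48, adjusted p = 0.00503 and 0.0007), as did Ccnd2, cyclin D2 (-1.21 and -1.37, adjusted p = 0.00609 and 0.000184). Ccnd1, cyclin D1, fell by 1.66 with Smc3 depletion (adjusted p = 9.51e-05) and was higher with Wapal than with Smc3 depletion by 1.23 (adjusted p = 6.26e-06). Rb1 was lower with Wapal than with Smc3 depletion by 0.86 (adjusted p = 0.000364). Of the 39 genes 8 (20.5%) were higher and 9 (23.1%) lower in this comparison, where 9.47% and 22.8% of the brighter genes were. The Cdk inhibitors Cdkn1c and Cdkn1b rose with Wapal depletion (0.78 and 0.62, adjusted p = 0.00895 and 0.0213), and Cdkn2b with Smc3 depletion (1.19, adjusted p = 0.00169).

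Of 28 checkpoint and fork repair genes, 3 (10.7%) fell after Wapal and 4 (14.3%) after Smc3 depletion, where 7.92% and 6.11% of the brighter genes did, and none rose. Brca2, the recombination mediator, fell with Wapal depletion (by 0.51, adjusted p = 0.0439). Brca1 fell with Smc3 depletion (by 0.55, adjusted p = 0.0096), as did Chek1, the kinase of the replication checkpoint (by 0.35, adjusted p = 0.044). Of 19 mitosis genes none passed in either depletion, and their medians were 0.06 and 0.07, above 0 where the replication genes were below it.

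35 of the 45 genes had more than 1 probe set, 100 in all. The 2 bright Ccne1 probe sets fell by 0.50 and 0.58 with Smc3 depletion, and the 3 Rrm2 probe sets had changes of -0.57 to -0.47 with Wapal depletion, of which the brightest passed. Probe sets disagreed for other genes, Dut and Mcm10 among them. A dimmer Mcm5 probe set fell by 0.71 with Wapal depletion (adjusted p = 0.0392), where the one used changed by -0.26. The second Orc1 probe set fell by 0.55 with Smc3 depletion (adjusted p = 0.0483), where the one used changed by -0.36. A dim Chaf1b probe set changed by 0.28 with Wapal depletion, where the one used changed by -0.31. A dim Mcm10 probe set was higher with Wapal than with Smc3 depletion by 0.63 (adjusted p = 0.000632), where the bright one differed by 0.07. The dim second Dut probe set fell by 0.71 with Wapal depletion (adjusted p = 0.0165) where the brighter one changed by -0.13.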

How the data were processed

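RNA of 10 samples was measured on Affymetrix Mouse 430 2.0 arrays. The authors deposited RMA values on a linear intensity scale, with 1 column per array. The RMA version, and whether all arrays were normalized together, are not given in the sources used here. Samples were grouped by their labels. After 64 control probe sets were left out, log2 intensities of 45037 probe sets were fitted with limma 3.58.1 in R 4.3.3, with 1 mean per group and Benjamini-Hochberg adjustment over all probe sets (threshold 0.05). A depletion was the mean of both shRNA groups minus Empty Vector over 6 arrays, and the depletions were compared over 10 arrays. The script was tested on simulated data. The precision is limited by 2 arrays per group. 34945 probe sets had 1 gene symbol, 932 several and 9160 none, and only the first were named. Per comparison, up to 14 genes past the threshold are given with full values, and up to 6 genes per related list. The members and lists were chosen with earlier results of these data known. Alternatives covered normalization, centring, an offset, dim probe sets, the intensity trend, the probe sets per gene, blocks and each array left out. Promoters came from RefSeq (GRCm38.p6).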

Additional observations from a re-analysis of the deposited data

Results flagged for a closer look

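For 14 of the 45 replication genes the change with Wapal depletion differed from that with Smc3 depletion when the difference itself was tested (limma contrast over 10 arrays, adjusted p under 0.05). This is 31.1%, near the 32.3% of genes with a mean log2 intensity of 6 or more that passed the same test. Among S phase entry genes, Ccne1 differed by 0.64, Ccne2 by 0.36 and E2f1 by 0.31 on the log2 scale, higher with Wapal depletion. Among licensing and firing genes, Orc2 differed by 0.35, Orc6 by 0.30, Orc1 by 0.22, Cdc45 by 0.31 and Gins2 by 0.26, again higher with Wapal depletion. Rfc3 differed by 0.31, Slbp by 0.28 and Pola1 by 0.26 in the same direction. The polymerase subunits Pola2 (-0.48), Pold1 (-0.40) and Pole (-0.38) were lower with Wapal depletion. The Wapal and Smc3 arrays did not overlap for Ccne1, E2f1, Orc1, Orc2, Orc6, Gins2, Pola2, Pole and Slbp, and they did for Ccne2, Cdc45, Rfc3, Pola1 and Pold1. These genes were picked by a call on the same arrays, which favors separation. The share of all genes without overlap was not computed.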

How the results depend on the processing

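Each group had 2 arrays, and array signal gives no read depth, so that changes near the threshold depended on the settings. Of the genes that fell, Cdc6 held in both depletions under all settings run. The 5 genes lower with Wapal depletion became 2 with a further quantile normalization, 15 with an intensity trend, 8 with the mean of a gene's probe sets, 8 with the side of the array split as a term and 1 to 2 with 1 array left out. The 7 lower with Smc3 depletion became 14 with all 10 arrays in 1 model, 14 without dim probe sets, 14 with an offset of 16, 16 with the trend, 12 with the probe set mean, 4 with the side term and 1 to 5 with 1 array left out. None rose with Smc3 depletion, except 1 (Prim2) with the offset. The share of all probe sets that passed in either direction moved as well. With Wapal depletion it was 5.91% in the main fit, 4.05% with quantile normalization, 10% with the trend and 7.42% with the side term. With Smc3 depletion it was 7.62% in the main fit, 10.1% in the 10-array model and 21.4% of those kept without dim probe sets. It was 9.48% with the offset, 11.1% with the trend and 6.01% with the side term. Of the 11 genes higher with Wapal than with Smc3 depletion, the count became 6 with the side term and 4 to 11 with 1 array left out, and the 3 lower became 6, 5, 7 and 6 without dim probe sets, with the offset, the trend and the probe set mean, and 2 to 4 with 1 array left out.

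For single shRNAs, the 4 genes lower with Wapal shRNA1 became 2 with quantile normalization, 11 in the 10-array model and 0 to 8 with 1 array left out. The 2 with Wapal shRNA2 became 1, 4 and 0 to 3 under the same settings. The 9 with Smc3 shRNA1 became 1 to 9, and the 6 with Smc3 shRNA2 0 to 4, with 1 array left out, while 1 gene rose with Smc3 shRNA2 in the 10-array model. Between the Wapal shRNAs, the 1 higher gene became 0 to 1 and the 0 lower genes 0 to 2 with 1 array left out, with 1 lower in the 10-array model. Between the Smc3 shRNAs, 2 higher became 0 to 3 and 4 lower 0 to 6. The cause of these shifts was not tested, beyond the smaller number of arrays where 1 was left out.

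The median change with Wapal depletion (-0.17) was -0.11 with quantile normalization and -0.19 to -0.10 with 1 array left out, and that with Smc3 depletion -0.22 to -0.14. The change of Tyms with Smc3 depletion was -0.75 without Empty Vector replicate 2 and turned to 0.11 without replicate 1. Replicate numbers did not pair the samples (correlations of replicate differences -0.16 to 0.06). With the replicate block 3 genes were lower with Wapal depletion, 1 with Wapal shRNA2, 3 with Smc3 shRNA2 and 0 higher between the Wapal shRNAs, and with Smc3 depletion 5 were lower.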
